A study of Mus musculus with 141 samples.

Results

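The comparison described here asks what IL21 adds, after 72 h of culture, to a Th17 cocktail that already holds IL6, TGFb and IL1b. It rests on 6 of the 141 libraries of the series: 3 from cells given IL6, TGFb, IL1b and IL21, and 3 from cells given IL6, TGFb and IL1b. They were chosen by their labelled culture conditions and time, and paired by the number of the culture course (courses 4, 5 and 6, which the deposited table counts as replicates 1, 2 and 3). In both groups naive CD4 T cells (CD4+CD25-CD44lo) of the inbred strain C57BL/6 were sort purified from lymph nodes and spleen. They were stimulated with plate-bound antibodies to CD3 (0.5 µg/ml) and CD28 (5 µg/ml). Both groups received IL6 (20 ng/ml), TGFb (1 ng/ml) and IL1b (10 ng/ml), and IL21 (20 ng/ml) was what set them apart. Another cocktail of the same courses, IL6 and TGFb with IL21 in place of IL1b (3 libraries), serves for comparison, as do the libraries of the same pair of cocktails from 0.5 to 48 h. The age and sex of the mice, and whether cells of a course came from the same mice, are not given in the sources used here.

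IL21 is a cytokine made by activated helper T cells. Its receptor, IL21R paired with the common gamma chain IL2RG, signals through the kinases JAK1 and JAK3 to STAT3, the same transcription factor that IL6 activates through the IL6ST (gp130) receptor. STAT3 in turn acts on Il21 itself, on the feedback inhibitor Socs3 and on genes of the Th17 program, so IL21 is known as an autocrine amplifier of Th17 cells. IL1b acts through the receptor IL1R1 and NF-kB and supports the production of interleukin 17.

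No gene passed the test at 72 h: 0 of 12281 genes differed between the IL1b plus IL21 and the IL1b libraries at an adjusted p under 0.05 (limma with the course as a block and Benjamini-Hochberg adjustment; 0% of genes, smallest adjusted p 0.615). Without adjustment 991 genes were under 0.05 (8.07%), 393 of them higher (3.2%) and 598 lower (4.87%) with IL21. edgeR's quasi-likelihood test on recovered reads also called 0 genes, with 998 under an unadjusted 0.05, and DESeq2 called 3, with 555 under it. The median absolute difference was 0.060 and the 95th percentile 0.269 on the log2 scale, and the largest was 0.91. Except for those given with DESeq2, log2 differences are of TMM-scaled CPM (reads of a gene scaled to a common library total) plus 0.5. The added 0.5 understates the change of genes near 1 CPM. The 95% interval of the difference lay within a 2-fold change either way for 12189 genes (99.3%), and within 1.5-fold for 11443 (93.2%), taking each gene by itself. In the same fit of 9 libraries, adding IL1b to the IL21 cocktail gave 2076 called genes (16.9%), 1107 higher and 969 lower. The 2 contrasts share the 3 libraries with both cytokines.

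**Figure D1:**
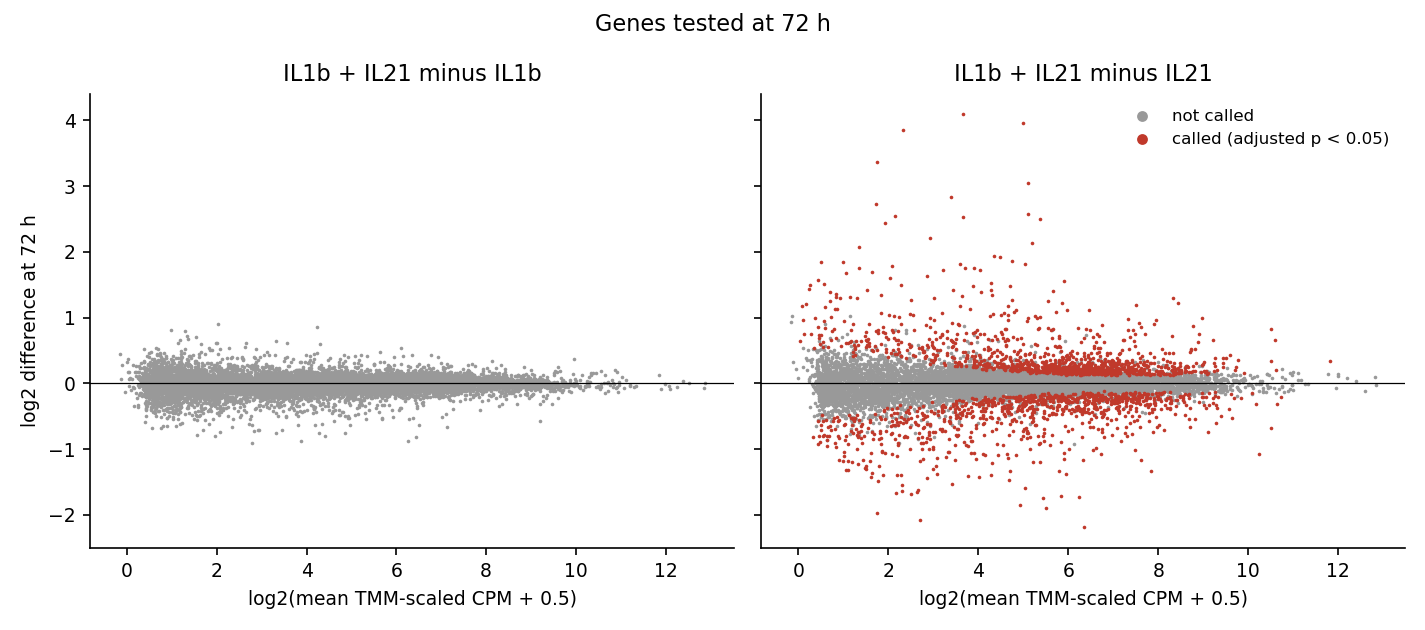
Each point is 1 of the 12281 genes tested at 72 h; the x axis gives its mean level as log2 of TMM-scaled CPM plus 0.5 and the y axis the log2 difference, for adding IL21 to the IL1b cocktail (left) and for adding IL1b to the IL21 cocktail (right). No point on the left is marked as called, and no difference there exceeds 0.91 in size, while 2076 genes are called on the right.

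The 3 courses did not contribute alike. Within a course, the pair of 72 h libraries differed by a median absolute log2 difference of 0.0997 in course 4, 0.060 in course 5 and 0.102 in course 6, over the 12281 genes. Differences over 2-fold were seen for 55 genes in course 4, 1 in course 5 and 57 in course 6. Relative to Poisson counting noise, the mean squared difference between both libraries was 19.1 times larger in course 4, 3.29 times in course 5 and 11.6 times in course 6. The 2 libraries of course 5 were thus closer to each other than the pairs of the other courses. Between the cocktails with both cytokines and with IL21 alone, the same measure was 33.0, 39.7 and 30.2 in courses 4, 5 and 6, so the course 5 library with both cytokines was not close to the one with IL21 alone. Over the 16 genes of the Th17 core list, differences ran from -0.85 to 0.44 in course 4, from -0.16 to 0.07 in course 5 and from -0.96 to 0.61 in course 6. When course 5 was left out, 58 genes passed the test, 37 higher and 21 lower; without course 4 or without course 6 the count was 0. No measurement here shows whether IL21 was present in the course 5 culture labelled as given both cytokines, and the count of 0 and every difference over the 3 courses include that pair.

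**Figure D2:**
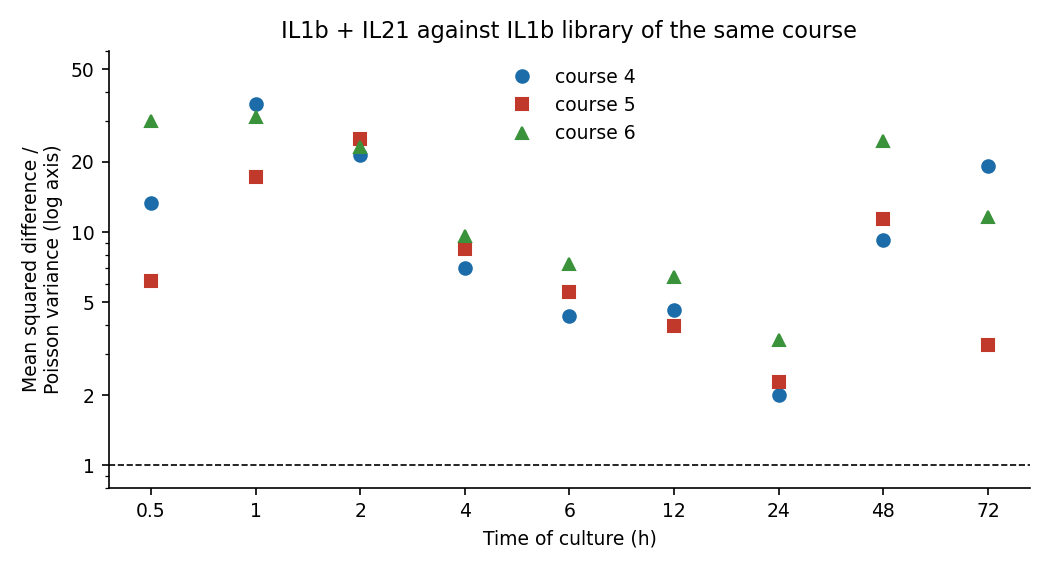
For each time (x axis, h) and course, the y axis (log scale) gives the mean squared difference between the IL1b plus IL21 library and the IL1b library, over genes with a mean of at least 100 reads, as a multiple of the Poisson variance (dashed line at 1). At 72 h the value for course 5 (3.29) lies below those for course 6 (11.6) and course 4 (19.1); at 24 h the 3 courses lie between 2.00 and 3.46.

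Among the Th17 core genes, 0 of 16 passed the test. Without adjustment 4 were lower (Il17a, Il22, Il23r and Il24) and 1 was higher (Maf), against 4.87% and 3.2% of all genes. The list's median difference was -0.034, beside -0.0052 over all genes. Il17a, which encodes the cytokine that defines Th17 cells, stood at 400.4, 803 and 847 CPM with IL1b in courses 4, 5 and 6 and at 230.3, 826 and 436 CPM with IL1b and IL21. It was lower with IL21 in courses 4 and 6 and about level in course 5, and the groups overlapped. The difference was -0.57 ± 0.17 (SE, log2; 95% interval -0.95 to -0.19; adjusted p 0.615). Without course 5 it was -0.87, with an adjusted p of 0.0183. Levels in bulk RNA do not tell fewer Il17a-producing cells from less Il17a RNA per cell.

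The other genes of the list with the lowest unadjusted p had the same course pattern. Il24, a cytokine of the IL-10 family, was measured at 60.2, 40.4 and 83.5 CPM with IL1b and at 34.2, 37.7 and 50.6 CPM with IL21 added (difference -0.54 ± 0.20). Il22, a cytokine that acts on epithelial cells, was at 17.5, 18.4 and 47.2 CPM against 9.47, 19.1 and 35.0 CPM (-0.41 ± 0.17). Il23r, the receptor chain through which IL23 maintains Th17 cells, was at 16.5, 41.6 and 37.2 CPM against 9.95, 43.5 and 20.7 CPM (-0.49 ± 0.18). For each of these 3 genes the libraries of the groups overlapped, and in course 5 the difference was between -0.10 and 0.06. Their adjusted p was 0.615 in each case. Maf, a transcription factor that drives Il10 and Il21, was at 544, 357 and 328 CPM with IL1b and at 736, 327 and 445 CPM with both (0.25 ± 0.10, adjusted p 0.615). Maf was higher with IL21 in courses 4 and 6 and lower in course 5. Ahr, the aryl hydrocarbon receptor, had the same signs by course and a difference of 0.23 ± 0.10 (adjusted p 0.616).

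Of the transcription factors of the Th17 program, Rora, Batf and Irf4 differed less between the groups than Maf and Ahr did. Rora, a nuclear receptor of that program, differed by 0.06 ± 0.10, and the activation factors Batf and Irf4, which open Th17 loci, by -0.10 ± 0.05 and 0.0037 ± 0.05. Their adjusted p values were 0.876, 0.637 and 0.987. Il17f, the close relative of Il17a, was at 1838, 1953 and 2418 CPM against 1805, 1943 and 1873 CPM (-0.13 ± 0.13, adjusted p 0.796). Il21 itself was at 448, 459 and 451 CPM with IL1b and at 400.2, 467 and 498 CPM with IL21 added. Its difference was 0.0029 ± 0.12, with an interval of -0.27 to 0.27. Il10, an anti-inflammatory cytokine, differed by -0.011 ± 0.06 and Il1r1, the IL1b receptor, by -0.06 ± 0.15. The chemokine receptor Ccr6 (-0.19 ± 0.24) and its ligand Ccl20 (0.29 ± 0.32) had wide intervals, from -0.72 to 0.34 and from -0.43 to 1.01, so a 2-fold rise of Ccl20 lies inside its interval.

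**Figure D3:**
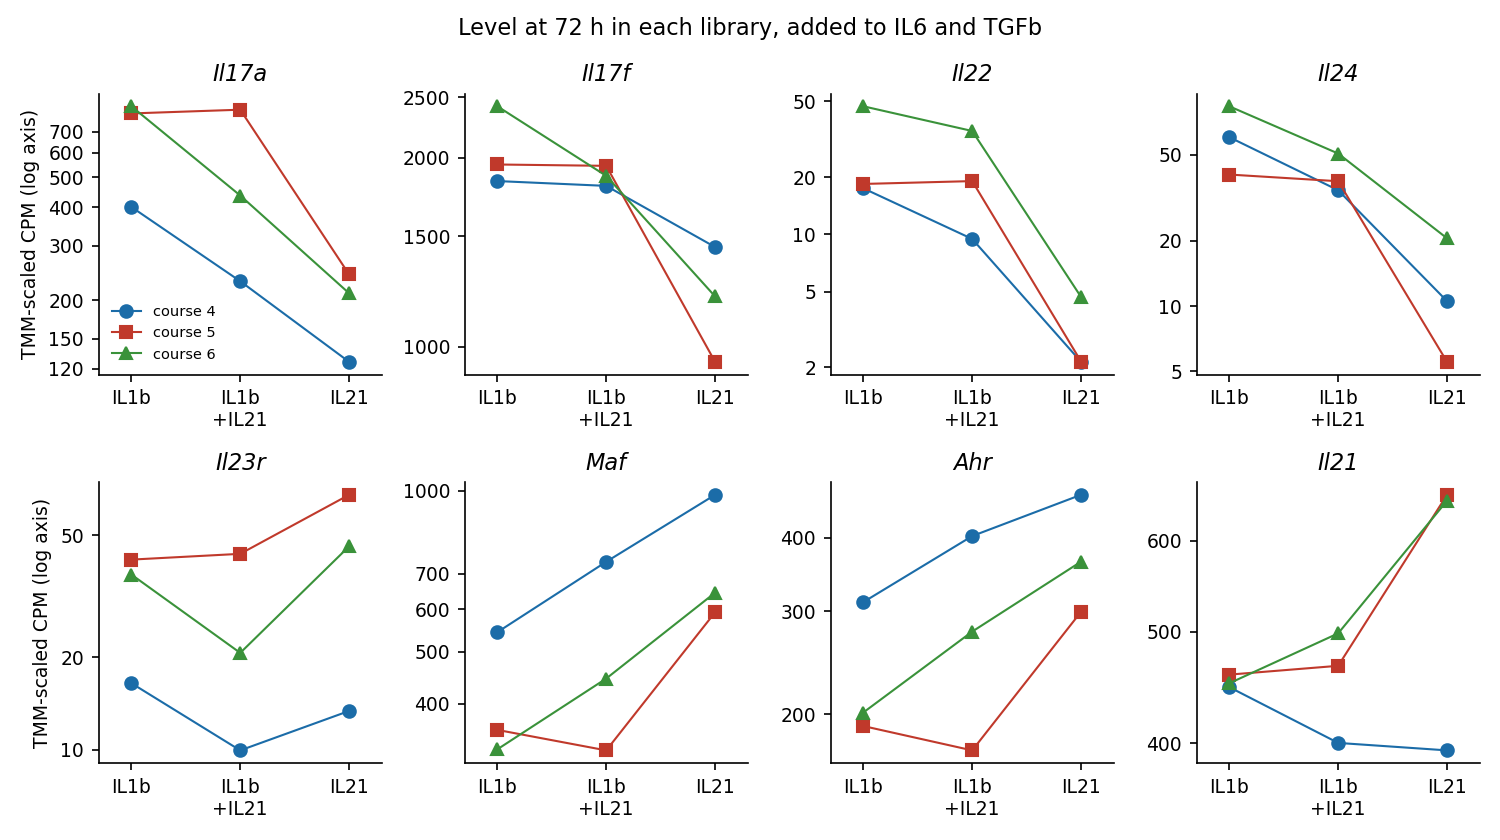
Each panel gives the level of 1 gene (TMM-scaled CPM, log axis) in the 9 libraries of 72 h, by the cytokine added to IL6 and TGFb (x axis); lines join libraries of a course. In Il17a, Il22, Il24 and Il23r the lines of courses 4 and 6 go down from IL1b to IL1b plus IL21 while that of course 5 is nearly level (Il17a 803 and 826 CPM).

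When IL1b was instead added to the IL21 cocktail, 12 of the 16 genes passed the test, 6 higher and 6 lower, where 16.9% of all genes did; this contrast shares the 3 libraries with both cytokines. Il17a differed by 1.23 ± 0.17 between both cytokines and IL21 alone (adjusted p 0.0021), Il22 by 2.53 ± 0.17 (7.6e-05), Il24 by 1.87 ± 0.20 (0.00073) and Il17f by 0.67 ± 0.13 (0.011), each higher when IL1b was present. Maf (-0.60 ± 0.10, adjusted p 0.0049), Ahr (-0.47 ± 0.10, 0.017), Il1r1 (-0.78 ± 0.15, 0.0087) and Il23r (-0.73 ± 0.18, 0.026) were lower when IL1b was present. Il17a stood at 126, 242 and 210.5 CPM in the IL21 libraries, below the same course's library with both cytokines in each course.

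The receptor and signalling genes of the IL21 pathway showed no called difference in 19 tested members. The median difference of the list was 0.018, and all 19 intervals lay within 2-fold. Il21r was at 279, 272 and 279.6 CPM with IL1b and at 311, 258 and 277 CPM with IL21 added (0.023 ± 0.06, adjusted p 0.925). Stat3, the main signal transducer of the receptor, was at 859.5, 852 and 865 CPM against 903, 842 and 856 CPM (0.014 ± 0.06, adjusted p 0.96). Socs3 was at 182, 132 and 159.6 CPM against 230.3, 121 and 147 CPM, higher with IL21 in course 4 and lower in the others (0.035 ± 0.13, adjusted p 0.951). Il2rg, Jak1, Jak2, Jak3, Tyk2, Stat5b, Socs1, Cish, Pias3, Ptpn2 and Ptpn6, which are receptor chains, kinases, transducers and inhibitors of the pathway, differed by -0.08 to 0.05. Stat5a, a transducer of IL2 signals, differed by -0.18 ± 0.11, and Il6ra, the IL6 receptor, by 0.11 ± 0.07. Socs2, a feedback inhibitor, differed by 0.29 ± 0.16, from -0.22 in course 5 to 0.80 in course 6.

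Il6st had the lowest unadjusted p of the pathway list and was the 1 member under 0.05. It encodes gp130, the signal-transducing chain that IL6 uses. Its levels were 111, 75.2 and 89.9 CPM with IL1b and 152, 79.8 and 110.2 CPM with IL21 added. It was higher with IL21 in each course, the groups overlapped, and the difference of 0.28 ± 0.08 did not pass the test (adjusted p 0.615).

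Because fewer than 5 genes were called in either direction, the genes with the smallest unadjusted p among those at 5 CPM or more and with 1 sign in all courses are described next; none of them passed the test. Such a common sign was found for 29.7% of all genes. Lower with IL21 were Cyp2s1, a cytochrome P450 (-0.31 ± 0.05), Gatsl3 (-0.37 ± 0.07), Isca2, which helps assemble iron-sulphur clusters (-0.26 ± 0.05), St8sia4, a polysialyltransferase (-0.34 ± 0.07), Gla, the lysosomal alpha-galactosidase A (-0.33 ± 0.07), and Avpi1 (-0.26 ± 0.06). Cyp2s1 was at 41.4, 46.1 and 49.7 CPM with IL1b and at 32.6, 39.6 and 38.5 CPM with both. Higher with IL21 were Crebbp, a histone acetyltransferase (0.26 ± 0.06), Foxn3, a forkhead repressor (0.25 ± 0.06), Prdm11 (0.36 ± 0.09), Pik3r1, a regulatory subunit of PI3 kinase (0.27 ± 0.07), Dsel (0.42 ± 0.11) and Rnpc3, a part of the minor spliceosome (0.23 ± 0.06). Crebbp was at 141, 143 and 114 CPM with IL1b and at 173, 153 and 149 CPM with both. In Cyp2s1, Isca2 and Crebbp the 3 libraries of each group did not overlap, as in 3.86% of all genes; in the other 9 they did. The adjusted p of each of these 12 genes was 0.615, and the interval of each lay within 2-fold.

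Prdm11, which encodes a PR domain protein, varied least between courses among the 12. It was at 5.61, 4.56 and 4.14 CPM with IL1b and at 7.32, 5.96 and 5.51 CPM with IL21 added. The difference was 0.36, 0.35 and 0.38 in courses 4, 5 and 6. It was called in a fit of the 81 libraries of these courses from 0.5 to 72 h with a course block at each time (0.38, adjusted p 0.0147). That fit takes its spread from every time and called 13 genes at 72 h, 3 higher and 10 lower. Besides Prdm11 they were, higher, Pdlim5 (0.45) and Pkhd1l1 (0.81), and, lower, Npr3 (-0.79), Sdcbp2 (-0.63), Myo16 (-0.61), Gm5483 (-0.62), Cdh17 (-0.79), Gdpd2 (-0.63), Steap4 (-0.77), Dennd3 (-0.61), Gm12416 (-0.67) and Fhod3 (-0.64). These and the genes in the next paragraph were chosen after their values were seen. Steap4, Gdpd2, Npr3, Cdh17, Fhod3, Pkhd1l1, Myo16, Gm5483 and Gm12416 were below the filter in the fits of 4 h and of 24 h alone. The SE of Steap4 was 0.16 in the fit of 81 libraries and 0.33 in the main fit, and that of Pkhd1l1 0.18 and 0.19. Some levels at 72 h were also low, as in Fhod3 (means of 1.55 CPM with IL1b and 0.918 CPM with both). Npr3, a natriuretic peptide receptor, stood at 18, 21.6 and 40.4 CPM with IL1b and at 8.51, 19.5 and 16.8 CPM with both, and was also called by DESeq2 (-0.80, adjusted p 0.032). The other genes DESeq2 called were Tgfbi, an extracellular matrix protein induced by TGFb (1.33, adjusted p 0.0174), and Gm11410 (0.28, adjusted p 0.0352). These DESeq2 values are log2 changes of recovered reads, and in the main fit Tgfbi differed by 0.90 ± 0.24. Tgfbi was at 4.63, 0.385 and 0.682 CPM with IL1b and at 12.8, 0.389 and 2.45 CPM with both: higher in courses 4 and 6 and level in course 5.

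The 58 genes called without course 5 included Il17a, Il24, Npr3, Sdcbp2, Tigit and Inhba among the lower and Maf, Ikzf3, Tgfbi, Pdlim5 and Igfbp4 among the higher; 4 of the 58 were also among the 13 of the larger fit. Tigit, an inhibitory receptor, stood at 6.64, 12.4 and 18.9 CPM with IL1b and at 2.78, 13.3 and 8.55 CPM with both. Ikzf3, which encodes the lymphoid factor Aiolos, stood at 152, 92.3 and 90.0 CPM against 215, 87.3 and 128 CPM. In both genes the libraries of course 5 were close and those of courses 4 and 6 were apart. Both genes were taken from those called without course 5. That choice favours this pattern, so the pattern adds no independent information on course 5. With 2 courses left, the fit estimates its spread from fewer libraries, and whether the course 5 pair or the other pairs represent the response better was not tested. Course 4 also stood apart in Foxp3, the Treg factor, at 3.31, 0.385 and 0.318 CPM with IL1b and 9.07, 0.291 and 1.07 CPM with both (0.70 ± 0.30, adjusted p 0.615).

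Lists of other T cell programs held no called gene at 72 h. The counts of members under an unadjusted 0.05 that follow stand against 4.87% lower and 3.2% higher over all genes, and the medians against -0.0052. Of 19 tested STAT3 target genes 4 were lower (Il12rb2, Il24, Fgl2 and Il23r) and 1 was higher (Maf), with a median of -0.044. In the list linked to pathogenic Th17 cells, 13 genes were tested; 5 were lower without adjustment (Casp1, Icos, Bhlhe40, Il23r and Il22) and 1 was higher (Lgals3), with a median of -0.30. In the list linked to non-pathogenic Th17 cells, 3 of 7 were higher without adjustment (Ikzf3, Il6st and Maf) and 0 lower, with a median of 0.23. These lists share genes with the Th17 core and pathway lists. In the pathogenic list 0 genes were higher and 0 lower in all 3 courses. In the non-pathogenic list 1 was higher and 0 lower in all 3 courses. Over all genes 29.7% had such a common sign. Of 9 inhibitory receptors 4 were lower without adjustment (Cd200, Ctla4, Lag3 and Tigit) and the median was -0.17. In all 3 courses 1 of the 9 was lower and 0 were higher, and Ctla4 and Tigit were higher with IL21 in course 5. Among 17 tested genes that respond to NF-kB and IL-1, 2 were lower (Il1r2 and Traf1) and the median was -0.067. The 20 interferon response genes had a median of -0.033 and 1 higher (Ifi47), the 13 Treg genes a median of -0.015, and the 10 Th1 and cytotoxic genes a median of -0.12. Of the metabolic and growth lists, the medians were 0.054 for 20 cell cycle genes, -0.054 for 17 glycolysis and hypoxia genes, -0.075 for 19 cholesterol synthesis genes and -0.13 for 13 genes of the unfolded protein and amino acid stress response. Of the last list 3 were lower without adjustment (Psat1, Asns and Phgdh, enzymes of serine and asparagine synthesis) and 0 higher. Of the cholesterol synthesis genes 4 were lower without adjustment (Mvd, Fdft1, Msmo1 and Mvk, enzymes of the mevalonate and sterol steps), and that list ran from -0.19 to 0.056.

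The 72 h libraries held 22.1 to 35.4 M reads. All 13 CD4 T cell markers were present at similar summed levels, 5052 to 5276 CPM with IL1b and 4733 to 5269 CPM with both. Of the CD8 T cell markers, Cd8a was at most 0.291 CPM, while Cd8b1 stood at 5.30 to 10.1 CPM in the 6 libraries. Of the markers of other cells, the means over the 6 libraries were under 1 CPM for 12 of 13 myeloid, 8 of 10 B cell and 9 of 10 erythroid and platelet genes. The highest of these were Cst3 (myeloid list, 55.6 to 68.4 CPM) and Ighm (B cell list, 13.2 to 19.3 CPM). Lyz1 and S100a8 (myeloid), Hba-a2, Hbb-bt, Pf4, Ppbp and Gp9 (erythroid and platelet) and Klrb1c, Ncr1, Klra8 and Trdv4 (NK and gamma-delta) had 0 reads in the 6 libraries. The NK and gamma-delta list summed to 20.1 to 67.8 CPM with IL1b and 17.9 to 97.2 CPM with both, most of it Klrd1 (16 to 90.2 CPM), which activated T cells can also express. Of all these markers, Klrd1 was higher and Ebf1 (B cell list) lower with IL21 at an unadjusted p under 0.05 at 72 h. Both were among the 58 genes called without course 5 (0.70 and -1.14). The part of these genes in the results was not tested.

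The same pair of cocktails, compared at other times of the same courses, did give called genes. There were 0 at 0.5 h (0% of 12719), 6 at 1 h (0.0477%), 87 at 2 h (0.742%), 727 at 4 h (6.12%), 78 at 6 h (0.65%), 53 at 12 h (0.455%), and 0 at both 24 h and 48 h (0% of 11829 and of 11834). At 4 h 400 genes rose and 327 fell. Without adjustment 830, 567 and 377 genes were under 0.05 at 0.5, 24 and 48 h. These counts rest on the pairing by course: without the block they were 0, 24, 1 and 7 at 2, 4, 6 and 12 h. Among 2 to 72 h, the time of the highest count also depended on the courses used: without course 5 it was 2 h (1000 genes, against 627 at 4 h), and without course 6 it was 12 h (380, against 295 at 4 h). The fits at different times use different libraries, and the spread within a fit differs: the median SE was 0.060 at 4 h, 0.052 at 24 h, 0.082 at 48 h and 0.067 at 72 h.

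**Figure D4:**
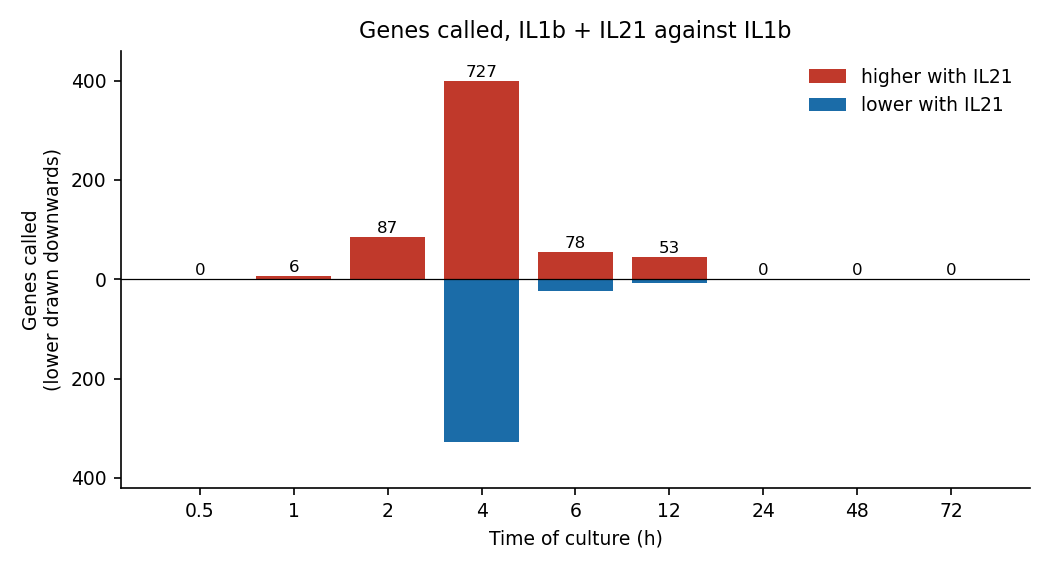
Bars give the number of genes called at each time (x axis, h) in the IL1b plus IL21 libraries against the IL1b libraries, higher genes upwards and lower genes downwards, with the total printed above. With all 3 courses the count is highest at 4 h, with 727 genes, and is 0 at 24, 48 and 72 h; among 2 to 72 h, it is highest at 2 h without course 5 and at 12 h without course 6.

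The genes that IL21 moved at 4 h did not keep that difference as a group. Of the 400 genes higher at 4 h (median difference 0.21), 388 were tested at 72 h, where 0 were called and their median was -0.012. Without adjustment 20 were under 0.05 in the same direction and 31 in the opposite one. Over all genes tested at 72 h, 3.2% were higher and 4.87% lower at that threshold. Of the 327 lower at 4 h (median -0.26), 308 were tested at 72 h and had a median of 0.017, with 16 under 0.05 in the same direction and 24 in the opposite one. At 4 h 6.12% of all genes were called. Of the 10 Th17 core genes tested then, 7 rose and 0 fell, among them Maf (0.42 ± 0.05, adjusted p 3.6e-06), Ahr (0.47 ± 0.05, 2e-06) and Rora (0.30 ± 0.04, 3.9e-05). At this time 6 of the 19 pathway genes rose and 1 fell, and of the 20 interferon response genes 12 rose and 0 fell. None of the members of these lists was called at 72 h, where no gene was.

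A set of 15 genes was called in 1 direction at 4, 6 and 12 h, 14 higher (among them Mxd1, Igfbp4, Ptprj, Il21, Gbp2, Frmd4b, Il21r, Egln3, Inhba, Socs3, B4galnt4, Ly6a and Ly6c1) and 1 lower (Adamts6). At 72 h, where no gene was called, 0 of the 15 were called, and their differences ran from -0.40 to 0.38 with a median of 0.024. Without adjustment 3 of the 15 were under 0.05 (Mxd1 and Igfbp4 higher, Inhba lower), against 8.07% of all genes. Il21 differed by 0.66 ± 0.03 at 4 h (adjusted p 4.9e-12), 0.52 ± 0.04 at 6 h, 0.39 ± 0.03 at 12 h, 0.16 ± 0.04 at 24 h (adjusted p 0.8), -0.020 ± 0.11 at 48 h and 0.0029 ± 0.12 at 72 h. Its mean level with IL1b was 163, 146, 307, 276, 260.1 and 452 CPM at those times, so the transcript was present at every one of these times. Socs3 differed by 0.33 ± 0.05, 0.36 ± 0.05 and 0.30 ± 0.04 at 4, 6 and 12 h (adjusted p 0.00014, 0.0024 and 0.0018) and by 0.030 ± 0.04 at 24 h. Il21r was 0.18 ± 0.03 higher at 4 h and 0.18 ± 0.03 higher at 12 h (adjusted p 0.0012 and 0.025), and differed by -0.018 ± 0.03 at 24 h. Gbp2, an interferon-induced GTPase, was 0.75 ± 0.05 higher at 12 h (87.5 ± 6.81 CPM with IL1b and 147 ± 13.8 CPM with both, SD, n = 3). At 24 h it differed by -0.016 ± 0.05.

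At 72 h Gbp2, Igfbp4 and Inhba differed in 1 direction in courses 4 and 6 and in the other in course 5. Not all of the 15 genes did so. Socs3 differed by 0.34, -0.12 and -0.12 in courses 4, 5 and 6, and Egln3 by -0.06, -0.08 and 0.04. Gbp2 was at 907, 579 and 560.3 CPM with IL1b and at 1192, 545 and 667 CPM with both (0.19 ± 0.09, adjusted p 0.639). Igfbp4, an IGF-binding protein, was at 1296, 677 and 581 CPM against 1829, 596 and 1022 CPM (0.38 ± 0.15, adjusted p 0.615). Inhba, which encodes a subunit of activin A, had the lowest difference of the 15: 40.3, 79.9 and 98.3 CPM against 23.4, 95 and 61.3 CPM (-0.40 ± 0.16, adjusted p 0.615). The groups overlapped in each of these 3 genes.

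**Figure D5:**
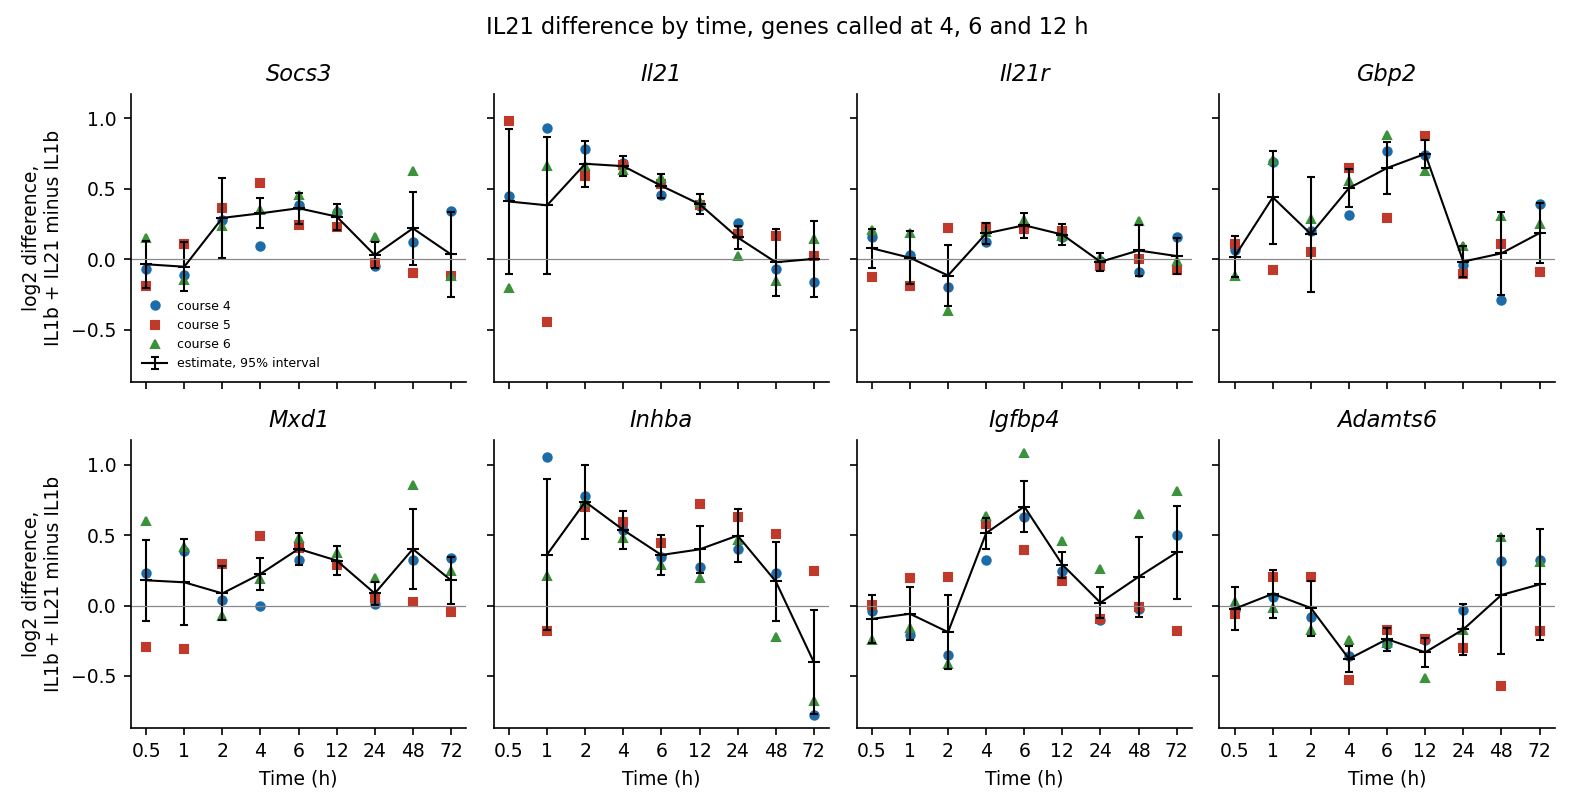
For 8 of the 15 genes called at 4, 6 and 12 h, the y axis gives the log2 difference (IL1b plus IL21 minus IL1b) at each time (x axis, h); symbols are courses and the line is the estimate with its 95% interval. Il21, Socs3 and Gbp2 lie above 0 in every course from 4 to 12 h, and at 72 h their estimates are 0.0029, 0.035 and 0.19 with intervals that include 0.

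The differences between times were tested as interactions over the 81 libraries. The IL21 effect at 72 h differed from that at 24 h for 0 of 14792 genes (0%, with 434 under an unadjusted 0.05). It differed from that at 48 h for 1 gene (0.00676%), Gm12416, which was below the filter in the fit of 48 h alone. Against 4 h, a contrast added after the counts by time were known, the effect differed for 20 genes (0.135%), 6 higher and 14 lower at 72 h. Among them were Ctla4, an inhibitory receptor (0.75 ± 0.04 at 4 h, -0.17 ± 0.08 at 72 h, change -0.93 ± 0.14, adjusted p 0.00016), Inhba (0.54 ± 0.07 and -0.40 ± 0.16, change -0.95 ± 0.21, adjusted p 0.034) and Foxn3 (-0.40 ± 0.06 and 0.25 ± 0.06, change 0.65 ± 0.10, adjusted p 0.00026). Of the 727 genes called at 4 h, 10 of the higher and 6 of the lower were called in this test, so for the rest a change of effect by 72 h was not shown. The count of 20 was 140 without course 5, 7 without course 6 and 0 without course 4 or without the block.

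The promoters of the 15 early genes were searched for the STAT-type motif TTCNNNGAA, which reads the same on both strands, in the RefSeq promoter table (build GRCm38.p6, 250 bases before to 50 after a start). Of the 15 genes 12 matched, with 16 promoters, and 2 of these held the motif (12.5%), against 8.3% of all 32851 promoters. Both hits were in Socs3 and Ptprj. The promoter of Socs3 is shown because this feedback inhibitor was called higher at 4, 6 and 12 h and was not called at 72 h. A change of its effect between 4 and 72 h was not shown (adjusted p 0.872, limma interaction). Capitals mark the motif, whose first base lies 154 bases before the start.
Socs3, chr11:117969317-117969616, minus strand: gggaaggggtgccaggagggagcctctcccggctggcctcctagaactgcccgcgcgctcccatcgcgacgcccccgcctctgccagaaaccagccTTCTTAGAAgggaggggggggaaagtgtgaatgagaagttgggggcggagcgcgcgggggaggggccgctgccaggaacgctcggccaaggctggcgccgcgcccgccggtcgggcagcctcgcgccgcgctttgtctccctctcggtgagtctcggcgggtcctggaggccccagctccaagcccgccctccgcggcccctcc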

How the data were processed

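RNA was sequenced from mouse T cells in 47 groups of 3 libraries. The deposited values are CPM made by the authors: all columns have 1 total, and in units of the column minimum 100% of values are whole (tolerance 0.001), so these multiples were used as read counts. The submitters' processing notes name TopHat, HTSeq, mm9 and GRCh37, without versions or roles; 0 columns were left out. Groups came from the labels.

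TMM-scaled CPM plus 0.5 were taken to log2 and fitted with limma (trend) over the 9 libraries of 72 h, for the 12281 of 46517 genes that reached 1 CPM in 3 or more of them, with course as a block (4 residual and 5.07 prior degrees of freedom) and Benjamini-Hochberg adjustment. Deviations of same-course libraries from their group means correlated at 0.873, 0.700 and 0.491 in courses 4, 5 and 6, all over 0.1, so the course numbers, taken from the sample titles, were used as pairs. Other times were fitted alike; interactions used 81 libraries. Libraries of 1 group differed by 9.78 to 84.9 times Poisson noise, so none were copies. Per the labels replicates are biological; where they share mice or cultures, p-values measure the spread between these samples only.

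Members and gene lists were chosen with earlier results of these data known. Named genes were the 12 largest called changes in each direction or, with fewer than 5 called, the 6 with the smallest p at 5 CPM or more and 1 sign in all courses (clone, predicted and Rik symbols passed over), every Th17 core and IL-21 pathway gene, and up to 4 called members of other lists; 3 genes are not reported here. Alternatives were other blocks, scalings, pseudocounts, filters, edgeR and DESeq2 on recovered reads, and each course left out. Scripts were tested on simulated data. Software was limma 3.58.1, DESeq2 1.42.0 and edgeR 4.0.16 under R 4.3.3. Genes that share reads with near-identical copies or overlapping genes are uncertain, since the counting settings are not given in the sources used here.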

Additional observations from a re-analysis of the deposited data

Results flagged for a closer look

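The IL21 effect differed between times, by the interaction over 81 libraries, for 7 of the genes named. Against 48 h, Gm12416 changed by -1.07 (adjusted p 0.0488). Its means at 72 h were 1.36 CPM with IL1b and 0.585 CPM with both, and it was below the filter in the fit of 48 h alone. Cdh17, at means of 4.46 and 2.35 CPM at 72 h, was below the filter in the fit of 4 h alone. Against 4 h, the change was -0.95 for Inhba, 0.65 for Foxn3, -0.93 for Ctla4, -0.73 for Sdcbp2, -1.04 for Cdh17 and -0.82 for Dennd3, with adjusted p values of 0.034, 0.00026, 0.00016, 0.033, 0.034 and 0.041 (limma). The estimates of Inhba and Ctla4 were above 0 at 4 h and below 0 at 72 h, and that of Foxn3 was the reverse. None of these genes was called at 72 h, so a reversal of sign was not shown. In course 5 at 72 h Inhba and Ctla4 were higher with IL21 (0.25 and 0.11). The contrast with 4 h was added after the data had been seen. Gm12416, Sdcbp2, Cdh17 and Dennd3 were named because the fit of 81 libraries called them at 72 h, and Foxn3 for its small p at 72 h. Inhba was named for its calls at 4, 6 and 12 h, and Ctla4 after its values were seen. This choice used values that enter the contrasts, so the count of 7 is not independent of it. Groups of 3 libraries were not screened for single outlying samples.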

How the results depend on the processing

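The count of 0 at 72 h was also found without the replicate block, with the 6 libraries compared only, without TMM or with other size factors, with pseudocounts of 0.1 and 2, with no filter or a 5 CPM minimum, and with edgeR. It was 13 with all 81 libraries and the block at each time, 3 with DESeq2, and 0 to 58 when 1 course was left out, 58 being without course 5. At 24 h (0) leaving out a course gave 0 to 10, and at 48 h every setting run gave 0. The 72 minus 24 h count (0) became 0 to 8 with a course left out. The 72 minus 48 h count (1) became 0 with no replicate block, 0 with no TMM, and 0 to 12 with a course left out. The 72 minus 4 h count (20) became 0 with no replicate block, 69 with no TMM, and 0 to 140 with a course left out. With no replicate block the counts at 2, 4, 6 and 12 h (87, 727, 78 and 53) were 0, 24, 1 and 7; with a course left out they ran from 1 to 1000 at 2 h, 295 to 703 at 4 h, 10 to 493 at 6 h and 7 to 380 at 12 h. Of 1337 values of 91 named genes under 15 alternatives, 25 changed sign, all of genes whose difference was at most 0.19 in size, and 28 passed the threshold. These passes came from the fit of 81 libraries, DESeq2 and the fit without course 5, since every other alternative called 0 genes. Genes called by the fit of 81 libraries or by DESeq2 were added to the named genes, so the count of 28 is not independent of that choice. The median half-width of the 95% interval at 72 h was 0.15 on the log2 scale for a gene taken by itself, without adjustment over all genes.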
